A study of Homo sapiens with 30 samples.

Results

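The genes described here encode the basement membrane, the thin sheet of matrix on which blood vessels rest, and the integrins, the surface receptors that hold cells to it. They were chosen by gene symbol from a deposited table of 63138 genes and kept by a count minimum. The list holds 39 genes: 10 laminin chains, 6 type IV collagen chains, 4 nidogens and proteoglycans, fibronectin, 12 integrin alpha chains and 6 integrin beta chains. Of these, 35 reached 10 or more counts in at least 3 of the 30 libraries, a minimum that 16924 of all 63138 genes also reached. The 4 genes below it were LAMC3, ITGA8, ITGA9 and ITGB7, whose highest counts in any library were 10, 1, 7 and 6. Of the 35 genes kept, 31 had 10 or more counts in all 30 libraries, while ITGB8 had them in 28 libraries, LAMA2 in 29, ITGA4 in 26 and COL4A3 in 14.

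RNA was sequenced from the human line hCMEC/D3, endothelial cells of brain microvessels that were immortalised for use in blood-brain barrier cultures, in 10 groups of 3 libraries. In the 5 direct groups, cells received TNF (TNFα, 25 ng/mL), IL1b (IL-1β, 10 ng/mL), C5a (a complement fragment, 50 ng/mL), epinephrine (200 nM) or serum-free medium alone (Control), and all titles give 12 h. In the 5 vesicle groups (EV-TNF, EV-IL1b, EV-C5a, EV-Epinephrine and EV-Control), hCMEC/D3 cells received extracellular vesicles (membrane particles that cells release) taken from the supernatants of such cultures, EV-Control being those of the medium-only cells. The dose of vesicles is not given in the labels, so direct and vesicle doses cannot be matched. The labels name no other cell type in the cultures, and all libraries carry the same batch number. The labels do not say whether the 3 libraries of a group came from separate cultures, so p-values measure the spread between these samples, which may be technical.

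In a basement membrane, laminins and type IV collagens each form a network, and nidogens and heparan sulfate proteoglycans tie the networks together. A laminin is a trimer of an alpha, a beta and a gamma chain, and integrins are pairs of an alpha and a beta chain that bind laminins, collagens or fibronectin. At brain capillaries this matrix lies between endothelial cells, pericytes and astrocyte endfeet, and endothelial cells make laminins with the LAMA4 or LAMA5 chain.

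Library totals ran from 16643961 to 22112326 counts, and the 39 genes held 1.04% to 1.35% of them. Levels below are in CPM, the usual counts relative to library size, here with trimmed-mean (TMM) scaling, fold changes are log2 values with their standard error (SE), and a gene is called when the adjusted p of edgeR's quasi-likelihood test is under 0.05. All groups have n = 3. Epinephrine library 2 stood apart from its replicates (chi-square per gene of 12.9 and 10.1 against 5.07 between the other pair), as did, less so, EV-Control libraries 1 and 3 from each other (10.1), while the remaining replicate pairs ran from 2.04 to 5.96. Where a result described below loses its call without 1 of these libraries, that value is given. All 15 endothelial markers passed the count minimum, and their summed level ran from 2084 to 2141 CPM in Control and from 1483 to 1551 in EV-Control. It ran from 2102 to 2154 with TNF, 1572 to 1624 with IL1b, 1638 to 1705 with C5a and 1768 to 1842 with epinephrine. The median log2 fold change of those tested was 0.13, -0.39, -0.36 and -0.31 with these stimuli, and -0.55 in EV-Control against Control. Of genes that define other cell types, EPCAM had at most 7 counts, PTPRC at most 30 and GFAP at most 108. Genes shared with pericytes and fibroblasts were present (CSPG4 at 251 to 441 CPM, PDGFRB at 34.4 to 88.7 CPM, COL1A1 at 56.5 to 123 CPM), as was KRT18 at 148 to 342 CPM. In bulk RNA, fewer cells making a transcript and less transcript per cell cannot be told apart. Reads of overlapping genes on opposite strands may be mixed, since the use of strand in counting is not given in the sources used here. This touches COL4A1 with COL4A2, LAMA5 with ADRM1, LAMB1 with DLD, NID2 with RTRAF, HSPG2 with LDLRAD2, ITGA7 with BLOC1S1 and METTL7B, and ITGB4 with GALK1.

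Untreated cells expressed a matrix led by fibronectin and a receptor set led by ITGB1, the beta chain shared by many integrins. Per kilobase of exon, the mean level in Control was 214 ± 6.06 CPM per kb (SD) for ITGB1 and 183 ± 5.57 for FN1, followed by LAMB1 at 78.5 ± 0.392 and the proteoglycan agrin (AGRN) at 71.8 ± 4.65. Among laminin alpha chains, LAMA5 stood at 54.8 ± 3.98 CPM per kb, LAMA4 at 20.7 ± 0.378 and LAMA3 at 3.77 ± 0.0534. LAMA1 and LAMA2 stood at 0.0621 ± 0.0337 and 0.12 ± 0.0241, which is at the edge of detection. Among type IV collagens, COL4A2 led at 25.6 ± 0.736 CPM per kb, while COL4A5, COL4A1 and COL4A6 lay close together at 14.4 ± 0.166, 12.5 ± 0.383 and 11.7 ± 0.196. Taking the longest transcript as the length put COL4A1 above COL4A5. The laminin-binding chain ITGA3 (67.4 ± 2.93 CPM per kb) and the fibronectin-binding chains ITGA5 (54.3 ± 0.678) and ITGAV (35.7 ± 0.718) were the highest alpha chains. ITGA4, the chain by which leukocytes bind VCAM1, was the lowest of the 10 alpha chains kept at 0.0874 ± 0.0375.

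**Figure D1:**
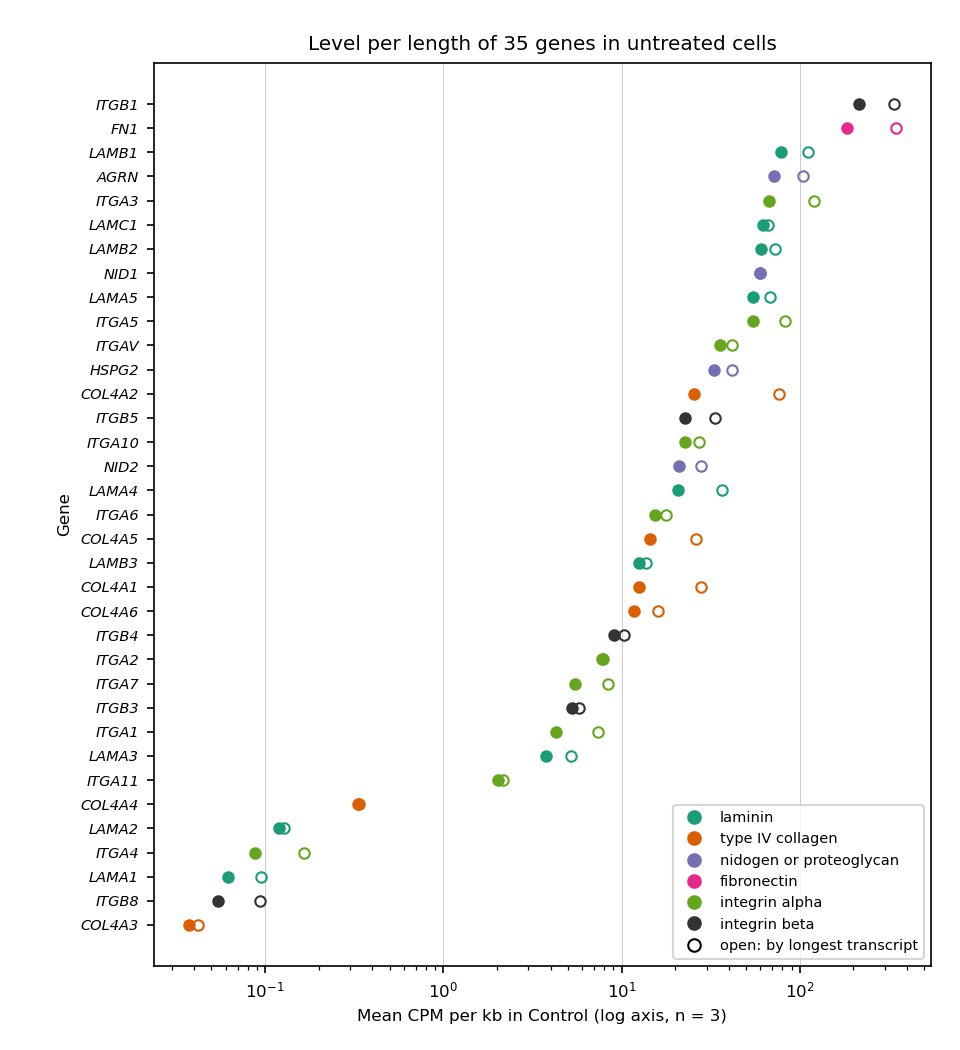
Mean level of each of the 35 genes in the 3 Control libraries, as CPM per kb of exon on a log axis (filled: all exons of the gene joined, open: longest transcript), coloured by family. ITGB1 and FN1 lie at the top near 200 CPM per kb by joined exons, and 6 genes lie below 1 CPM per kb.

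Each direct stimulus changed at least 18 of the 35 genes. TNF raised 12 genes and lowered 13, against 27.5% and 25.3% of all 15908 genes tested called higher and lower. IL1b raised 7 and lowered 16 (all genes: 24% and 22.6%). C5a raised 0 and lowered 18 (11.8% and 10.8%), and epinephrine raised 4 and lowered 16 (13.5% and 11.8%). For C5a, 0 of the 35 were higher at an unadjusted p under 0.05 either, and DESeq2 called 0 higher and 21 lower. The median log2 fold change of the 35 genes was 0.05 with TNF, -0.11 with IL1b, -0.16 with C5a and -0.10 with epinephrine, where the median of all genes was -0.01, -0.01, -0.0015 and 0.01. These comparisons share the Control libraries, so their directions are not independent. LAMB1, LAMB2, NID2, ITGA10, ITGA11 and ITGB5 were called lower with all 4 stimuli. The share of all genes lower with all 4 was not counted, so this has no background. With epinephrine the NID2 call was lost without Control library 1 (adjusted p = 0.0973) or 2 (0.052), and the ITGB5 call without Control library 1 (0.124) or with these 2 groups fitted alone (0.0509).

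Vesicles gave smaller changes. EV-TNF raised 8 and lowered 11 of the 35 genes (all 15918 genes tested: 5.9% higher and 7.42% lower), EV-IL1b raised 8 and lowered 12 (6.49% and 8.14%), and EV-Epinephrine raised 14 and lowered 5 (9.12% and 10.5%). Fold changes of the called genes ran from -0.43 to 0.80, from -0.41 to 0.99 and from -0.40 to 0.89. EV-C5a changed none of the 35 by edgeR or by DESeq2, with 1 gene higher and 3 lower at an unadjusted p under 0.05, and 0.0126% and 0.0377% of all genes called. Without EV-Control library 1, AGRN was called lower with EV-C5a (log2 fold change -0.15, adjusted p = 0.0457), and 13 genes were called with EV-TNF in place of 19, the calls of LAMC1, COL4A1, AGRN, ITGA1, ITGA4 and ITGAV being lost. With EV-IL1b those of COL4A1, NID1 and ITGAV were lost. The EV comparisons share the EV-Control libraries.

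The scaling matters for TNF. When libraries were scaled by their totals instead of TMM, the median log2 fold change of all genes with TNF moved from -0.01 to -0.29, and 10 of the 35 genes were called higher and 20 lower. Over all genes the calls then split into 2283 higher and 7783 lower, against 4369 and 4019. All fold changes with TNF below are relative to the TMM centre, and only COL4A2 among the genes called with TNF turned sign under the other scaling. The same change of scaling moved the split of calls over all genes for IL1b from 3824 higher and 3595 lower to 2919 and 4637, for EV-Epinephrine from 1452 and 1679 to 1975 and 1305, and for EV-Control against Control from 2024 and 1635 to 1612 and 2169. Of the 35 genes, the splits were then 6 higher and 19 lower with IL1b, 17 and 4 with EV-Epinephrine, and 6 and 17 in EV-Control.

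**Figure D2:**
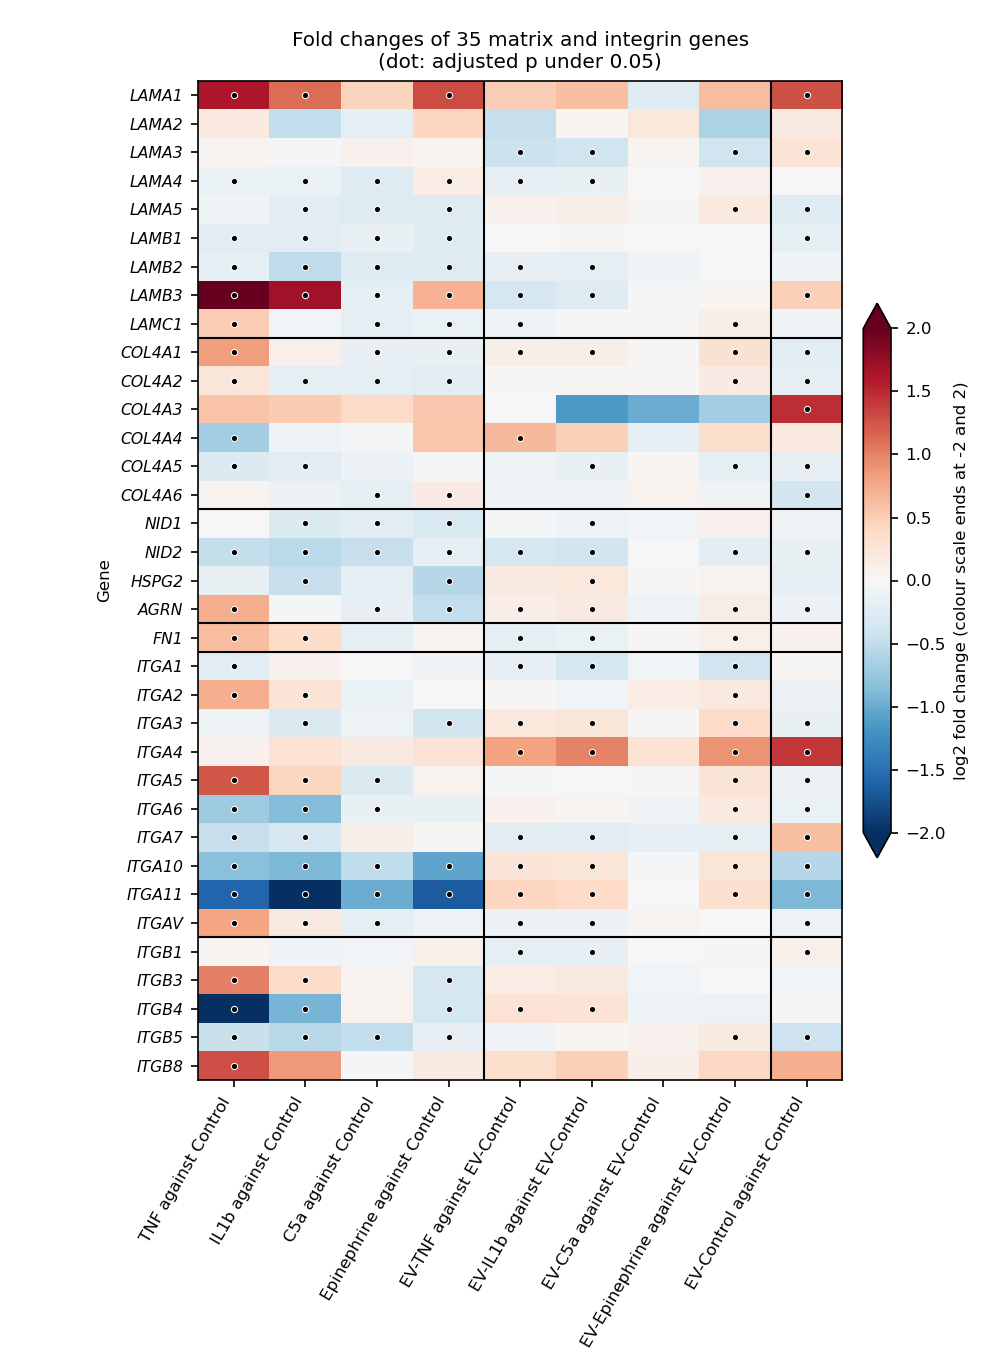
Log2 fold changes of the 35 genes (rows, by family: laminins, type IV collagens, nidogens and proteoglycans, fibronectin, integrin alpha, integrin beta) in 9 comparisons (columns), red for higher and blue for lower, with a dot where adjusted p is under 0.05. LAMB3 (3.36 with TNF), ITGB4 (-2.85 with TNF) and ITGA11 (-2.17 with IL1b) exceed the colour scale, and the EV-C5a column has no dot.

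Among laminins, the beta chain LAMB3 rose with TNF, IL1b and epinephrine, and with TNF it had the largest fold change of the 9 laminin genes kept. LAMB3 belongs, with LAMA3, to the laminin best known from epithelial hemidesmosomes. It lies on chromosome 1 (GRCh38, GENCODE 29, positions 209614870 to 209652466, minus strand). RefSeq lists more than 1 start for it. Part of the 250 bases before the most upstream and the most downstream start (positions 209652425 and 209651374) is shown, without the bases nearest each start. LAMB3 was chosen for this because its fold change with TNF is the largest of the 35 genes. Capitals mark an NF-kappaB motif in the first and an AP-1 motif (TGANTCA) in the second, both strands being searched. The first (chr1:209652467-209652675, minus strand) lies outside any annotated gene, and the second (chr1:209651395-209651624, minus strand) lies in an intron of the longer LAMB3 transcripts.
LAMB3 upstream start: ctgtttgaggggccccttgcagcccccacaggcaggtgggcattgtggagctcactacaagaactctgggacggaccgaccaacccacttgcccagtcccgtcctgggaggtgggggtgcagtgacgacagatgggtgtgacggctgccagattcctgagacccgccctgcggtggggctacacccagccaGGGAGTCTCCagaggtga
LAMB3 downstream start: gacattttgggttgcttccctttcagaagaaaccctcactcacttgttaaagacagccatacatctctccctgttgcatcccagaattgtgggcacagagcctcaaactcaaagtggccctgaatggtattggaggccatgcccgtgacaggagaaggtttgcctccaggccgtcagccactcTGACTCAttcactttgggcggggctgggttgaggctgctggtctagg
The sequences are from RefSeq on GRCh38.p14 and start 5′. Among all 35116 RefSeq windows of 250 bases before a start, 5.21% held the NF-kappaB motif and 6.57% the AP-1 motif. Of the 29 members with a window, the NF-kappaB motif was found for ITGA1, ITGA5, ITGA10, ITGA11 and LAMB3 and the AP-1 motif for LAMA3 and LAMB3. A match describes the letters only.

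LAMB3 stood at 61.1, 58.9 and 57.4 CPM in the Control libraries and at 609, 603 and 606 with TNF. It stood at 188, 188 and 191 with IL1b and at 88.2, 101 and 97.7 with epinephrine. Each of these groups lay above Control with no overlap, in the order TNF, IL1b, epinephrine. The log2 fold change was 3.36 ± 0.05 (SE), adjusted p = 1.03e-34 with TNF, a 10.2-fold rise, 1.68 ± 0.05 (SE), adjusted p = 2.61e-25 with IL1b and 0.70 ± 0.05 (SE), adjusted p = 2.6e-13 with epinephrine, and IL1b lay below TNF (-1.67, adjusted p = 3.76e-26). With C5a, LAMB3 fell slightly (-0.19 ± 0.05 (SE), adjusted p = 0.00509). Against EV-Control, LAMB3 was lower with the vesicles of both cytokines. It stood at 87.1, 82.4 and 76.6 CPM in EV-Control, 64.3, 63.8 and 67.1 with EV-TNF and 68.1, 67.4 and 71.5 with EV-IL1b, which both lay below every EV-Control library. The fold changes were -0.34 ± 0.05 (SE), adjusted p = 1.91e-06, and -0.25 ± 0.05 (SE), adjusted p = 0.000317. EV-Control itself lay above Control by 0.47 ± 0.05 (SE), adjusted p = 1.55e-11, and all EV-TNF and EV-IL1b libraries still lay above every Control library. Epithelial markers, 4 of 7 of which passed the count minimum, summed to 165 to 178 CPM with TNF, 277 to 279 with IL1b and 267 to 287 in Control, so their sum was lower where LAMB3 was highest. With C5a, where LAMB3 fell slightly, they summed to 355 to 366 CPM. KRT18 alone ran from 148 to 342 CPM over all libraries, so 1 keratin weighs heavily in these sums. The median log2 fold change of the 4 epithelial markers tested was -0.69 with TNF, -0.59 with IL1b, -0.15 with C5a and -0.30 with epinephrine. By this measure they were lower with IL1b too and not raised with C5a. The part of these markers in the result was not tested.

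LAMA3, the partner chain of LAMB3, did not pass the test with any direct stimulus. With 3 kinds of vesicles it fell. It stood at 59.8, 72.99 and 67.7 CPM in EV-Control, 50.5, 50.2 and 48.3 with EV-TNF, 50.9, 49.1 and 51.7 with EV-IL1b and 50.5, 50.9 and 50.3 with EV-Epinephrine. All 9 libraries lay below the lowest EV-Control library, and the log2 fold changes were -0.43 ± 0.06, -0.41 ± 0.06 and -0.40 ± 0.06 (SE, largest adjusted p = 1.1e-06). EV-Control itself lay above Control (54.7, 56.2 and 54.96 CPM) by 0.27 ± 0.06 (SE), adjusted p = 0.000958, and the 3 vesicle groups lay below Control too.

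The alpha chains of the endothelial laminins changed little. LAMA4 stood at 242, 241 and 234 CPM in Control, 219, 217 and 216 with TNF, 193, 197 and 205 with C5a and 277, 244 and 267 with epinephrine. It was lower with TNF (-0.14 ± 0.05 (SE), adjusted p = 0.0104), IL1b (-0.13, adjusted p = 0.0171) and C5a (-0.26 ± 0.05 (SE), adjusted p = 4.37e-05), and higher with epinephrine (0.15 ± 0.05 (SE), adjusted p = 0.0154). The call with IL1b was lost without Control library 1 or 2 or any IL1b library, and that with epinephrine without Control library 3 (adjusted p = 0.0625) or Epinephrine library 1 (0.0983). LAMA5 was more variable, at 828, 800.5 and 719 CPM in Control, 647, 662 and 638 with C5a and 723, 594 and 639.7 with epinephrine. It fell by 0.26 (log2) with C5a and by 0.25 with epinephrine, a call lost without Epinephrine library 2 (adjusted p = 0.131) or 3 (0.0663), and each direct call of LAMA5 was lost without Control library 1. With TNF it did not pass the test (-0.09 ± 0.07, SE). LAMA4 fell with EV-TNF (-0.17 ± 0.03 (SE), adjusted p = 0.000364) and EV-IL1b (-0.14 ± 0.03 (SE), adjusted p = 0.00196), and LAMA5 rose with EV-Epinephrine (0.19 ± 0.05 (SE), adjusted p = 0.00618).

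The common beta and gamma chains moved apart with TNF. LAMC1, the gamma chain of most laminins, stood at 532, 519.8 and 519 CPM in Control and 733, 740.0 and 767 with TNF, where every library was higher (0.51 ± 0.05 (SE), adjusted p = 6.87e-12). LAMB1 stood at 637, 637 and 642 CPM in Control and 547, 546 and 542 with TNF, where every library was lower (-0.23 ± 0.04 (SE), adjusted p = 4.3e-06). LAMB1 was also lower with IL1b (-0.23), C5a (-0.14) and epinephrine (-0.25, largest adjusted p of the 3 0.00642), and in EV-Control against Control (-0.20 ± 0.03 (SE), adjusted p = 1.46e-06), while no comparison with EV-Control was called. Control, at 637 to 642 CPM, was the highest of the 10 groups for LAMB1. LAMB2 fell most with IL1b, from 429, 412 and 402 to 290.5, 277 and 301 CPM (-0.51 ± 0.04 (SE), adjusted p = 1.04e-11). LAMC1 with IL1b did not pass the test (-0.06 ± 0.05, SE), and its small fall with epinephrine was lost without Epinephrine library 2 (adjusted p = 0.184) and without each Control library. LAMA1 rose with TNF, IL1b and epinephrine (1.62, 1.11 and 1.31), at levels of 0.618 to 3.94 CPM in these 4 groups.

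COL4A1 and COL4A2, whose chains together form the type IV collagen of all basement membranes, are transcribed in opposite directions from neighbouring starts on chromosome 13, with 126 bases between their RefSeq starts (GRCh38.p14, positions 110307157 and 110307284). They did not change equally with TNF. COL4A1 stood at 185, 189.6 and 178 CPM in Control and 331, 325 and 328 with TNF (0.83 ± 0.04 (SE), adjusted p = 6.66e-18). COL4A2 stood at 509.8, 491 and 482 CPM in Control and 582, 573 and 590.1 with TNF (0.23 ± 0.04 (SE), adjusted p = 8.19e-06), a change that turned to -0.04 (not called) with scaling by library totals. All TNF libraries lay above all Control libraries for both genes. Within libraries, free of scaling, there were 36.4, 38.6 and 37.03 COL4A1 counts per 100 COL4A2 counts in Control, 56.8, 56.6 and 55.6 with TNF and 46.5, 46.5 and 45.5 with IL1b. The ratio did not overlap with Control in either group (exact permutation test, two-sided, p = 0.1 in both, the smallest that 3 against 3 can give).

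With IL1b, COL4A2 fell to 423, 413 and 445 CPM (-0.20 ± 0.04 (SE), adjusted p = 0.000101), while COL4A1 missed the threshold (0.10 ± 0.04 (SE), adjusted p = 0.0551). With C5a and epinephrine both fell by 0.16 to 0.21, and the COL4A1 calls were lost without Control library 2 (adjusted p = 0.0561 for C5a and 0.0659 for epinephrine) and without C5a library 2 (0.0749) or Epinephrine library 3 (0.0559). EV-Epinephrine raised both. COL4A1 stood at 155, 159 and 161 CPM in EV-Control and 195, 193 and 198 with EV-Epinephrine (0.31 ± 0.04 (SE), adjusted p = 2.51e-09), and COL4A2 rose by 0.16 ± 0.03 (SE), adjusted p = 3.96e-05. COL4A1 was slightly higher with EV-TNF (0.11) and EV-IL1b (0.12), calls lost without EV-Control library 1 (adjusted p = 0.124 and 0.0629), and the former also without EV-Control library 2 or EV-TNF library 1 or 3.

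COL4A5 and COL4A6 are neighbours in opposite directions on chromosome X and form a further network together. COL4A5 was lower with TNF (-0.27 ± 0.04 (SE), adjusted p = 2.26e-06) and IL1b (-0.21 ± 0.04 (SE), adjusted p = 0.000175), at 172, 172 and 168 CPM in Control and 143, 140.0 and 139.8 with TNF. COL4A6 was lower with C5a (-0.19 ± 0.05 (SE), adjusted p = 0.00414) and slightly higher with epinephrine (0.16 ± 0.05 (SE), adjusted p = 0.0165), the latter lost without Control library 3 (0.0596) or Epinephrine library 3 (0.0693). COL4A6 stood at 109, 109 and 106 CPM in Control and 84.9, 79.3 and 87.7 in EV-Control, a log2 change of -0.37 ± 0.05 (SE), adjusted p = 1.66e-08. COL4A3 and COL4A4, at 0.171 to 1.58 CPM and 1.8 to 6.41 CPM over all libraries, are near the limit of detection. COL4A4 was lower with TNF (-0.70 ± 0.25 (SE), adjusted p = 0.0194, lost without Control library 2 or TNF library 1 or 2) and higher with EV-TNF, at 3.96, 4.02 and 3.56 CPM in EV-Control and 5.38, 6.34 and 6.41 with EV-TNF (0.65 ± 0.17 (SE), adjusted p = 0.00561).

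Of the proteins that tie the networks together, agrin rose with TNF and fell with epinephrine. AGRN stood at 811, 789.9 and 716 CPM in Control, 1268, 1258 and 1300.0 with TNF and 547, 548 and 545 with epinephrine. TNF lay above and epinephrine below every Control library (0.72 ± 0.04 (SE), adjusted p = 1.71e-16, and -0.49 ± 0.04 (SE), adjusted p = 9.6e-11). With IL1b it did not pass the test (-0.02 ± 0.04, SE). Agrin is a heparan sulfate proteoglycan that binds laminin.

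Perlecan (HSPG2), the other large proteoglycan, fell with IL1b and epinephrine. It stood at 618, 628 and 536 CPM in Control, 414, 420.3 and 447 with IL1b and 465, 316 and 412 with epinephrine. All IL1b and epinephrine libraries lay below Control, and Epinephrine library 2 lay lowest. The log2 fold changes were -0.47 ± 0.12 (SE), adjusted p = 0.00997, and -0.57 ± 0.13 (SE), adjusted p = 0.00658, the latter -0.43 (adjusted p = 0.00731) without Epinephrine library 2. With TNF the fold change was -0.15 ± 0.12 and did not pass the test.

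NID1 and NID2, which link laminin to type IV collagen, were both lower with IL1b, C5a and epinephrine, and with TNF NID2 alone was called. NID2 stood at 140.4, 137 and 125 CPM in Control, 93.3, 98.96 and 97.02 with TNF, 85.7, 93.1 and 97.8 with IL1b and 96.3, 100.3 and 93.1 with C5a. These 3 groups lay below Control and overlapped one another, with fold changes of -0.48 ± 0.06, -0.53 ± 0.05 and -0.47 ± 0.05 (SE, largest adjusted p = 4.27e-08). NID1 stood at 369, 349 and 336 CPM in Control, 287, 287 and 293 with IL1b and 353, 339 and 359.5 with TNF. Its fold change was -0.27 ± 0.05 (SE), adjusted p = 5.28e-05 with IL1b and -0.01 ± 0.05 with TNF, which did not pass the test. NID2 also fell with vesicles. It stood at 116, 121 and 126 CPM in EV-Control, 99.8, 91.9 and 94.9 with EV-TNF, 94.1, 94.03 and 92.97 with EV-IL1b and 109, 98.3 and 102 with EV-Epinephrine, all below EV-Control (-0.34 ± 0.05 (SE), adjusted p = 7.75e-08, -0.37 ± 0.05 (SE), adjusted p = 1.26e-08, and -0.22 ± 0.05 (SE), adjusted p = 0.000171). NID2 was thus called lower both with the cytokines and with the matching vesicles.

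Fibronectin (FN1), the main ligand of the ITGA5 and ITGAV integrins in provisional matrix, rose with both cytokines. The 146 bases before its GENCODE start (chr2:215436173-215436318, minus strand, RefSeq on GRCh38.p14) are shown because they hold the CRE motif TGACGTCA (capitals), found in 1.65% of all windows and in no other of the 29 members with a window. They overlap an exon of the non-coding gene AC012462.3 on the other strand.
FN1: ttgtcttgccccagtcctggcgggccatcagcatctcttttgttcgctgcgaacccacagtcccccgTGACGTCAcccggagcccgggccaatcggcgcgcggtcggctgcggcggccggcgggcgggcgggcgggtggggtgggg
FN1 stood at 3235, 3229 and 3065 CPM in Control, 5006, 4649.9 and 4899 with TNF and 4067, 4101 and 4092 with IL1b, and these 3 groups did not overlap. The fold change was 0.61 ± 0.07 (SE), adjusted p = 9.83e-07 with TNF and 0.37 ± 0.07 (SE), adjusted p = 0.000286 with IL1b. With epinephrine it stood at 3574, 2764 and 3511 CPM, with library 2 below Control and the others above it. The change did not pass the test with all libraries (0.06 ± 0.07 (SE), adjusted p = 0.604) and was called without Epinephrine library 2 (0.17, adjusted p = 1.14e-05). With vesicles FN1 was lower for the cytokines, at 3395, 3359 and 3338 CPM in EV-Control and 2963, 2969 and 2890.4 with EV-TNF (-0.20 ± 0.02 (SE), adjusted p = 2.74e-09), and -0.13 ± 0.02 (SE), adjusted p = 1.77e-05 with EV-IL1b. With EV-Epinephrine it was slightly higher (0.09 ± 0.02 (SE), adjusted p = 0.00196).

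**Figure D3:**
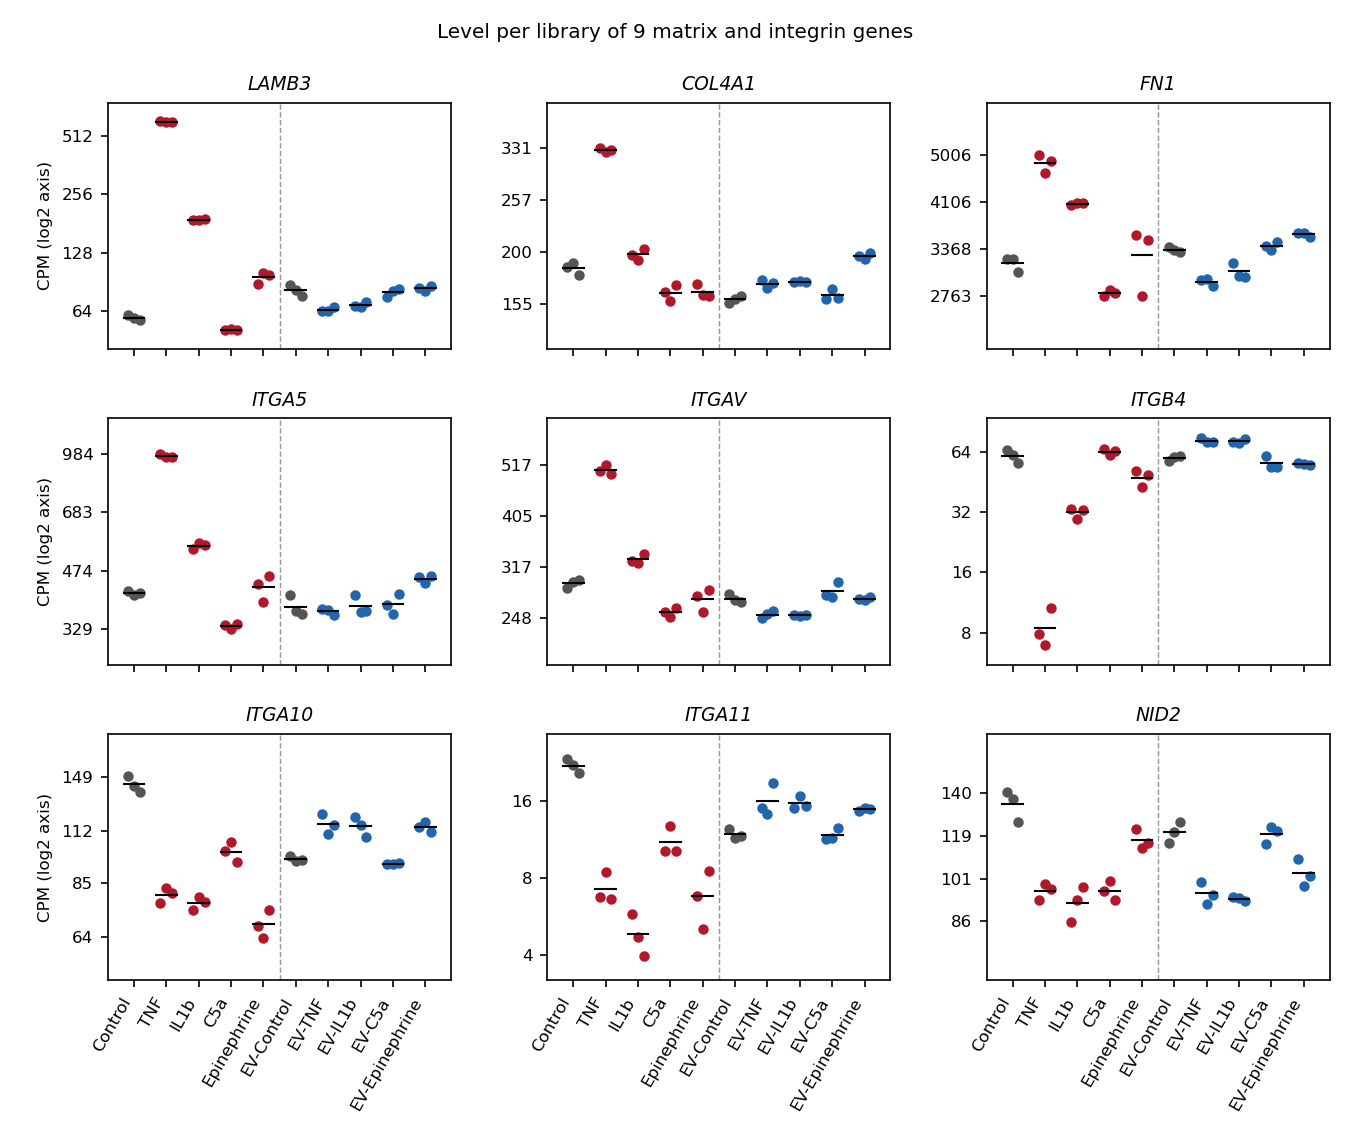
Level of 9 genes in each of the 30 libraries, in CPM on log2 axes that differ between panels, with the group mean as a bar (grey: control groups, red: direct stimuli, blue: vesicles of stimulated cells). LAMB3 and ITGB4 move in opposite directions with TNF, and for ITGA10 and ITGA11 the 3 Control libraries lie above all others.

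Among the receptors for fibronectin and other RGD ligands, TNF raised 3 chains together. ITGA5 stood at 417, 407 and 411 CPM in Control, 984, 962 and 965 with TNF, 543, 562 and 558 with IL1b and 338, 329 and 340.2 with C5a. The 4 groups did not overlap, with TNF highest and C5a lowest. The fold change was 1.24 ± 0.05 (SE), adjusted p = 7.68e-23 with TNF, 0.44 ± 0.05 (SE), adjusted p = 4.93e-10 with IL1b and -0.29 ± 0.05 (SE), adjusted p = 1.1e-05 with C5a. With epinephrine the change was 0.07 ± 0.05 (SE), adjusted p = 0.309, and without Epinephrine library 2 it was 0.13 (adjusted p = 0.00328). ITGAV, the alpha chain of the vitronectin receptors, stood at 286, 295 and 297 CPM in Control and 502, 517 and 496 with TNF (0.79 ± 0.04 (SE), adjusted p = 1.64e-17). With IL1b it was higher by 0.18 ± 0.04 (SE), adjusted p = 0.00111, a call lost with scaling by library totals (adjusted p = 0.0721), and with C5a it was lower (-0.19 ± 0.04 (SE), adjusted p = 0.00138).

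ITGB3, a partner of ITGAV, stood at 20.7, 24.9 and 23.5 CPM in Control, 44.5, 48.1 and 46.98 with TNF and 29.7, 32.8 and 26.3 with IL1b. Both groups lay above Control (1.01 ± 0.08 (SE), adjusted p = 7.29e-13, and 0.37 ± 0.09 (SE), adjusted p = 0.000455). ITGB5, another partner of ITGAV, went the other way, at 154, 144 and 140.4 CPM in Control, 108, 107 and 108 with TNF, 103, 93.6 and 98.8 with IL1b and 103, 102 and 104 with C5a, all below Control (-0.44 ± 0.05 (SE), adjusted p = 1.1e-09, -0.56 ± 0.05 (SE), adjusted p = 7.7e-12, and -0.50 ± 0.05 (SE), adjusted p = 1.01e-09). For ITGB5, EV-Control lay below Control as well, at 110, 109 and 110 CPM (log2 fold change -0.42). The Control libraries were the highest of all libraries for ITGB5, so its falls with the direct stimuli share this reference. The ratio of the pair, in ITGB3 counts per 100 ITGB5 counts, was 13.4, 17.2 and 16.8 in Control, 41.3, 44.9 and 43.4 with TNF and 28.8, 35.1 and 26.7 with IL1b (exact permutation p = 0.1 for both). ITGB8 was at 0.226 to 2.94 CPM over all libraries and its rise with TNF (1.29 ± 0.48 (SE), adjusted p = 0.0268) was lost without Control library 1 or 3 or TNF library 1, and with scaling by library totals. ITGB1, the shared partner chain, did not pass the test with any direct stimulus, at 1269.8, 1259 and 1327 CPM in Control and 1329.5, 1364 and 1305 with TNF (0.05 ± 0.04, SE). With scaling by library totals its TNF change was -0.22 and called. There were 32.8, 32.3 and 30.99 ITGA5 counts per 100 ITGB1 counts in Control and 73.97, 70.5 and 73.9 with TNF (exact permutation p = 0.1). ITGB1 fell with EV-TNF (-0.17 ± 0.03 (SE), adjusted p = 9.87e-07) and EV-IL1b (-0.17 ± 0.03 (SE), adjusted p = 2.56e-06), from 1409.9, 1348 and 1377 CPM in EV-Control to 1226, 1219 and 1224 with EV-TNF and to 1201, 1228 and 1259 with EV-IL1b.

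Of the laminin receptors, ITGB4 and ITGA6 fell with both cytokines. ITGB4 pairs with ITGA6 to form the hemidesmosome receptor of laminins. It stood at 65.3, 61.9 and 56.03 CPM in Control, 7.87, 6.93 and 10.6 with TNF and 33.3, 29.5 and 32.9 with IL1b. TNF lay lowest and neither group overlapped with Control, with fold changes of -2.85 ± 0.10 (SE), adjusted p = 6.42e-21, and -0.93 ± 0.09 (SE), adjusted p = 1.6e-10. The sum of the epithelial markers, in which KRT18 weighs heavily, was lower with TNF too, as given above for LAMB3. ITGA6 stood at 101, 100.2 and 99.1 CPM in Control, 62.1, 57.5 and 64.1 with TNF and 53.1, 54.9 and 56.02 with IL1b, and both groups lay below Control (-0.71 ± 0.06 (SE), adjusted p = 2.33e-13, and -0.86 ± 0.06 (SE), adjusted p = 3.28e-15). The pair did not fall equally with TNF. There were 64.6, 61.8 and 56.6 ITGB4 counts per 100 ITGA6 counts in Control, 12.7, 12.04 and 16.6 with TNF and 62.7, 53.7 and 58.7 with IL1b (exact permutation p = 0.1 for TNF and 0.6 for IL1b). The TNF libraries lay far below Control in this ratio, while the IL1b libraries overlapped it.

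With vesicles ITGB4 went up. It stood at 57.4, 60.4 and 60.7 CPM in EV-Control, 75.3, 71.4 and 71.5 with EV-TNF and 71.3, 70.96 and 73.9 with EV-IL1b. All 6 libraries lay above EV-Control (0.29 ± 0.05 (SE), adjusted p = 8.35e-05, and 0.27 ± 0.05 (SE), adjusted p = 0.000175). ITGA3, the laminin-binding chain at the highest level, fell with epinephrine, from 691, 658 and 634 to 502, 509 and 512 CPM (-0.37 ± 0.04 (SE), adjusted p = 8.52e-09), and with IL1b (-0.30 ± 0.04 (SE), adjusted p = 1.87e-07). It rose with 3 kinds of vesicles, from 569, 613 and 604 CPM in EV-Control to 791, 768 and 774 with EV-Epinephrine (0.39 ± 0.03 (SE), adjusted p = 3.33e-15), by 0.24 ± 0.03 with EV-IL1b and by 0.20 ± 0.03 with EV-TNF. ITGA7, known best from muscle, fell with TNF (-0.47 ± 0.08 (SE), adjusted p = 8.03e-06) and IL1b (-0.34 ± 0.08 (SE), adjusted p = 0.000688). It stood at 38.4, 33.1 and 32.8 CPM in Control and 50.4, 56.5 and 51.4 in EV-Control (0.60 ± 0.07 (SE), adjusted p = 9.02e-10), and below EV-Control with EV-TNF (49.8, 43.7 and 42.8 CPM) and EV-Epinephrine (46.8, 45.8 and 45.6 CPM), calls lost without EV-Control library 2 (adjusted p = 0.133 and 0.177) or without library 2 or 3 of the vesicle group itself.

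**Figure D4:**
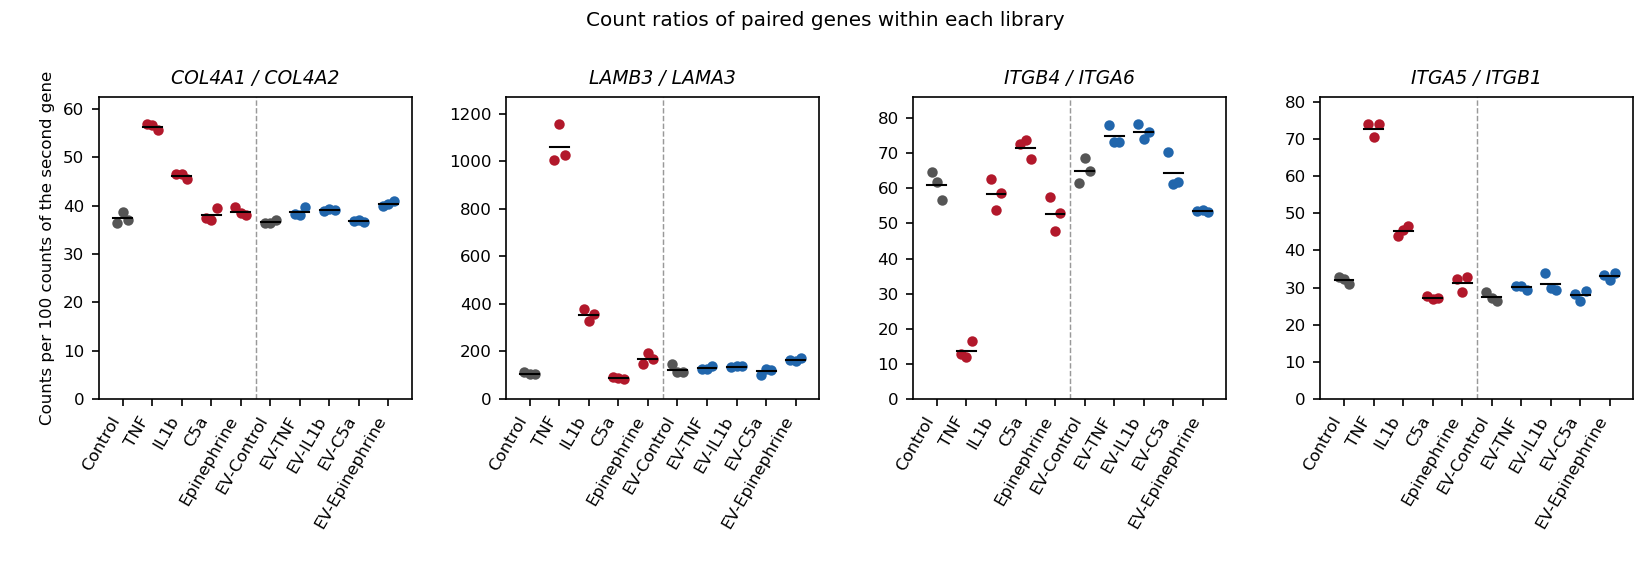
Counts of one gene per 100 counts of its partner within each of the 30 libraries, with the group mean as a bar, for COL4A1 over COL4A2, LAMB3 over LAMA3, ITGB4 over ITGA6 and ITGA5 over ITGB1 (linear axes from 0). TNF libraries lie highest for COL4A1, LAMB3 and ITGA5 and lowest for ITGB4.

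The collagen receptors split by gene. ITGA11, a receptor of fibrillar collagens, stood at 23.4, 22.1 and 20.5 CPM in Control, 6.74, 8.48 and 6.64 with TNF, 5.82, 4.7 and 3.99 with IL1b, 10.2, 12.7 and 10.2 with C5a and 6.81, 5.09 and 8.53 with epinephrine. All 12 libraries lay below Control, with fold changes of -1.59 ± 0.14 (SE), adjusted p = 1.1e-11, -2.17 ± 0.15 (SE), adjusted p = 2.61e-14, -0.99 ± 0.13 (SE), adjusted p = 8.52e-07, and -1.67 ± 0.14 (SE), adjusted p = 3.35e-11. Without Epinephrine library 2 the last was -1.50. ITGA10, which binds collagens in cartilage, stood at 149, 142 and 138 CPM in Control, 76.6, 82.96 and 80.9 with TNF, 73.8, 79.04 and 77.04 with IL1b, 101, 106 and 94.99 with C5a and 67.96, 63.8 and 73.8 with epinephrine. Its fold changes were -0.84 ± 0.06, -0.89 ± 0.06, -0.50 ± 0.06 and -1.05 ± 0.06 (SE, largest adjusted p = 1.34e-08).

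For both genes EV-Control lay below Control as well, at 12.5, 11.5 and 11.7 CPM for ITGA11 (-0.89 ± 0.12 (SE), adjusted p = 3.02e-08) and 98.1, 95.7 and 96.4 for ITGA10 (-0.56 ± 0.05 (SE), adjusted p = 9.15e-14). The Control libraries were the highest of all 30 for both genes, so the falls with the 4 stimuli share this reference. From EV-Control, both rose with 3 kinds of vesicles. ITGA11 stood at 15.1, 14.2 and 18.8 CPM with EV-TNF, 14.99, 16.7 and 15.3 with EV-IL1b and 14.6, 14.98 and 14.9 with EV-Epinephrine (0.43 ± 0.11 (SE), adjusted p = 0.00325, 0.40 ± 0.11 (SE), adjusted p = 0.00609, and 0.32 ± 0.11 (SE), adjusted p = 0.0251). The call with EV-TNF was lost without EV-TNF library 3 (adjusted p = 0.0813), and that with EV-Epinephrine without any 1 of 5 libraries (adjusted p up to 0.0863, without EV-Control library 2). ITGA10 rose by 0.26 ± 0.05 (SE), adjusted p = 2.06e-05, by 0.25 ± 0.05 (SE), adjusted p = 4.81e-05, and by 0.24 ± 0.05 (SE), adjusted p = 4.75e-05.

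ITGA2, the platelet and epithelial collagen receptor, went up with TNF, from 64.3, 60.5 and 60.1 to 103, 98.3 and 104 CPM (0.72 ± 0.06 (SE), adjusted p = 1.78e-12), and with IL1b (0.28 ± 0.06 (SE), adjusted p = 0.000283). ITGA1, which binds type IV collagen, was lower with TNF (-0.23 ± 0.07 (SE), adjusted p = 0.00551) and not called with IL1b (0.09 ± 0.07, SE). It fell with EV-IL1b and EV-Epinephrine, from 82.6, 78.8 and 80.5 CPM in EV-Control to 61.5, 65.8 and 63.2 with EV-IL1b and to 63.5, 62.1 and 58.5 with EV-Epinephrine, with no overlap (-0.35 ± 0.05 (SE), adjusted p = 1.24e-06, and -0.39 ± 0.05 (SE), adjusted p = 5.48e-08). ITGA4 was nearly absent from direct groups, at 0.370 to 1.49 CPM, and higher in vesicle groups. It stood at 1.68, 1.76 and 2.08 CPM in EV-Control, 3.00, 3.73 and 2.95 with EV-TNF, 3.81, 3.65 and 3.53 with EV-IL1b and 3.48, 3.3 and 3.5 with EV-Epinephrine. All 9 libraries lay above EV-Control (0.80 ± 0.23 (SE), adjusted p = 0.0122, 0.99 ± 0.23 (SE), adjusted p = 0.0014, and 0.89 ± 0.23 (SE), adjusted p = 0.00316), the first lost without EV-Control library 1 (0.0537) or EV-TNF library 2 (0.0816). EV-Control lay above Control by 1.42 ± 0.35 (SE), adjusted p = 0.00178. Counts are low, at most 73 in any library.

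The direct and vesicle responses were compared by the difference between them, the vesicle fold change minus the direct one. It was called for 23 of the 35 genes for TNF (all 16691 genes tested: 44.7%), 21 for IL1b (35.2%), 15 for C5a (11.9%) and 21 for epinephrine (24.2%). For TNF, IL1b and epinephrine, 8, 8 and 9 genes were called in opposite directions in the direct and the vesicle comparison, with a called difference. ITGA10 and ITGA11 did so for all 3 stimuli, and LAMB3, FN1, ITGAV and ITGB4 for both cytokines. Opposite calls were not counted over all genes, so these numbers have no background and do not set the 35 genes apart. Some of these directions rest on small vesicle changes. ITGAV stood at 278, 271 and 268 CPM in EV-Control, 248, 253 and 256 with EV-TNF (-0.11 ± 0.03 (SE), adjusted p = 0.0174) and 251, 251 and 252 with EV-IL1b (-0.12 ± 0.03 (SE), adjusted p = 0.012). Both ITGAV calls were lost without EV-Control library 1 (adjusted p = 0.0851 and 0.0647), and that with EV-TNF also without EV-TNF library 1 (0.0889) or 2 (0.059). The LAMC1 call with EV-TNF (-0.09 ± 0.03 (SE), adjusted p = 0.0317) was lost without any 1 of the 6 libraries (adjusted p from 0.0517 to 0.144) and with scaling by library totals (0.0839). The HSPG2 call with EV-IL1b (0.21 ± 0.06 (SE), adjusted p = 0.0403) was lost without EV-Control library 3 (0.0914) or any EV-IL1b library (up to 0.144). For LAMB3 the difference was -3.69 ± 0.07 (SE), adjusted p = 1.86e-48 for TNF, and for ITGB4 it was 3.14 ± 0.11 (SE), adjusted p = 1.05e-31. For ITGA5 the vesicle change with EV-TNF did not pass the test (-0.04 ± 0.05, SE), and the difference from the direct change was -1.28 ± 0.06 (SE), adjusted p = 1.77e-23. For epinephrine, COL4A1, COL4A2, AGRN, LAMA5, LAMC1, ITGA3 and ITGB5 were lower with the agent and higher with its vesicles, the direct calls of LAMA5, LAMC1, COL4A1 and ITGB5 each being lost without certain single libraries, as given above. AGRN differed by 0.65 ± 0.06 (SE), adjusted p = 4.75e-14 and ITGA3 by 0.77 ± 0.05 (SE), adjusted p = 1.89e-19. For C5a, the 15 called differences were all positive. Of these genes, 14 were called lower with C5a itself, the exception being ITGA2 (-0.13 ± 0.06, SE), and 0 were called with EV-C5a. Each difference rests on both Control and EV-Control. The 2 controls differ for 22 of the 35 genes, 7 higher and 15 lower in EV-Control (all genes: 12.1% and 9.8%), and without EV-Control library 1 for 15. In that comparison the addition of vesicles and any other difference in handling cannot be told apart. With scaling by library totals, the called differences split into 17 positive and 9 negative for TNF in place of 10 and 13, and into 15 and 7 for IL1b in place of 14 and 7. Over all genes they moved from 3561 and 3907 to 6891 and 2093 for TNF (median from 0.02 to 0.31) and from 2827 and 3052 to 3770 and 2273 for IL1b (median from 0.03 to 0.11).

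**Figure D5:**
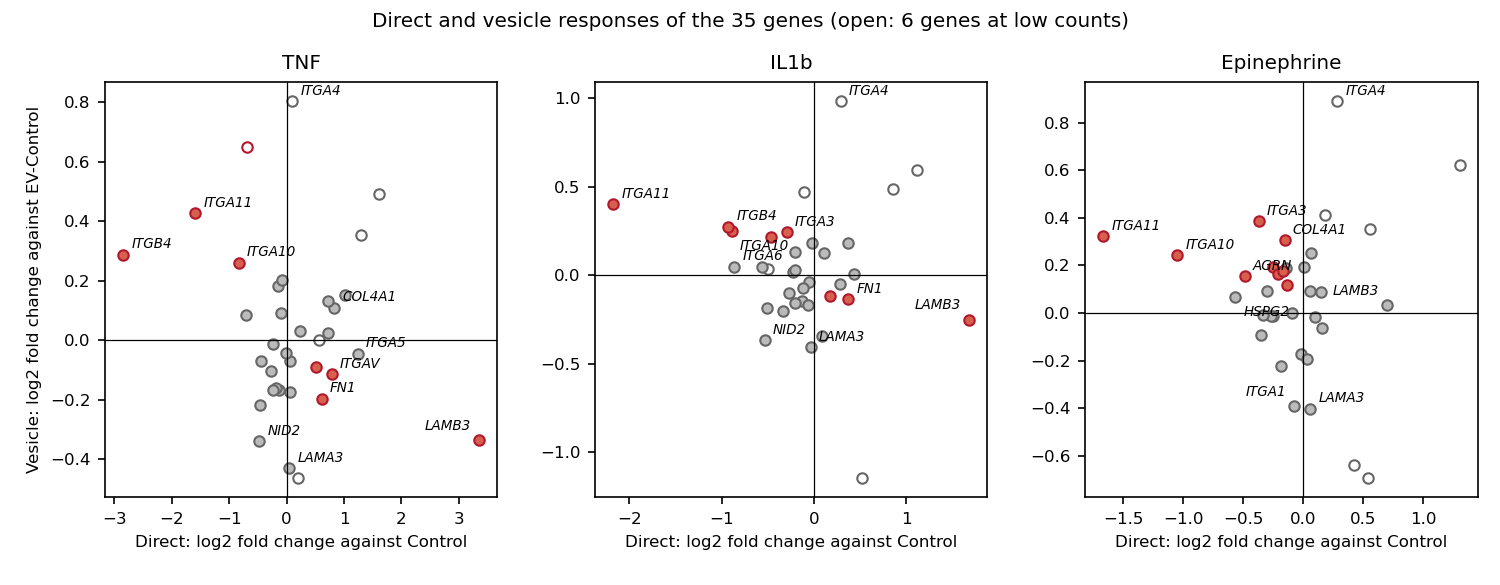
Log2 fold change with the direct stimulus against Control (x axis) and with the matching vesicles against EV-Control (y axis) for the 35 genes and 3 stimuli (red: called in opposite directions with a called difference, open: 6 genes at low counts). The axes differ in scale: direct changes reach 3.36, vesicle changes of called genes stay between -0.43 and 0.99.

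The 2 cytokine groups were also compared with each other, and IL1b lay above TNF for 2 of the 35 genes and below it for 17 (all genes: 19.9% and 21.4%). The 2 were ITGB4 (1.92 ± 0.11 (SE), adjusted p = 1.42e-15) and ITGA1 (0.32 ± 0.07 (SE), adjusted p = 0.000253). Those below included ITGA5 (-0.80 ± 0.05 (SE), adjusted p = 5.25e-17), AGRN (-0.74 ± 0.04 (SE), adjusted p = 1.89e-16), COL4A1 (-0.72 ± 0.04 (SE), adjusted p = 5.99e-16), ITGAV (-0.61 ± 0.04 (SE), adjusted p = 3.68e-14) and LAMC1 (-0.57 ± 0.05 (SE), adjusted p = 8.82e-13). With scaling by library totals the 35 genes split into 9 above and 11 below, and all genes into 6504 and 2041 in place of 3168 and 3412, with the median of all genes moving from 0.01 to 0.21. ITGA11 was lower with IL1b than with TNF (-0.59 ± 0.17 (SE), adjusted p = 0.00503), a call lost without TNF library 2 (0.058) or IL1b library 3 (0.0501). The doses of the agents differ, so these values compare the groups as treated.

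Other genes of these pathways were read from 4 lists, beside the medians of all genes given above. Of 28 tested genes that modify or join the basement membrane, 8 rose and 11 fell with TNF (all genes: 27.5% and 25.3%), 5 and 18 with IL1b (24% and 22.6%), 0 and 18 with C5a (11.8% and 10.8%), and 2 and 15 with epinephrine (13.5% and 11.8%). These shares of all genes are also the background for the 3 lists that follow. Their medians were -0.06, -0.21, -0.17 and -0.18. The collagen lysyl hydroxylase PLOD2 rose with TNF (1.17), IL1b (0.80) and epinephrine (0.38), from 611 ± 10.8 CPM in Control to 1376 ± 53.1 with TNF (SD). The calcium-binding matrix protein SMOC1 fell with TNF (-0.79), and the basement membrane collagen COL18A1 with IL1b (-0.69). The collagen chaperone SERPINH1 rose with EV-TNF (0.31), EV-IL1b (0.33) and EV-Epinephrine (0.33). In this list 4 genes were higher and 6 lower with EV-TNF (all genes: 5.9% and 7.42%), 3 and 9 with EV-IL1b (6.49% and 8.14%), and 9 and 5 with EV-Epinephrine (9.12% and 10.5%).

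Of 33 tested adaptors and kinases that act behind integrins, 16 rose and 7 fell with TNF (median 0.10), 9 and 12 with IL1b (-0.09), 9 and 3 with C5a (0.04) and 6 and 13 with epinephrine (-0.05). The scaffold NEDD9 rose with TNF (1.78, from 36.5 ± 1.34 to 126 ± 11.8 CPM, SD) and the tensin TNS3 rose too (1.19), while TNS2 (-0.996) and LIMS2 (-0.93) fell. LIMS2 fell with all 4 stimuli and rose with EV-TNF (0.25) and EV-IL1b (0.34). Of 17 matrix receptors and integrin partners outside the integrin family, 8 rose and 8 fell with TNF (median 0.11), 4 and 11 with IL1b (-0.23), 2 and 7 with C5a (-0.09) and 2 and 4 with epinephrine (-0.08). CD44, a receptor of hyaluronan, rose with TNF (1.64) and IL1b (1.54), and CD47, an integrin partner, rose with both (1.77 and 0.74). The heparan sulfate proteoglycan SDC1 fell with both (-1.54 and -0.77). Of 22 tested integrin ligands outside the basement membrane, 9 rose and 4 fell with TNF (median 0.12), 7 and 9 with IL1b (0.01), 2 and 10 with C5a (-0.13) and 8 and 10 with epinephrine (-0.12). Thrombospondin 1 (THBS1) rose with TNF (1.48) from 1626 ± 50.0 to 4545 ± 128 CPM (SD). With EV-C5a, edgeR called 0 genes in each of the 4 lists. Sums of marker lists differed between groups as well. Fibroblast markers, 5 of 7 of which passed the count minimum, summed to 207 to 235 CPM in EV-Control, 275 to 285 with EV-TNF, 262 to 314 with EV-IL1b and 295 to 309 with EV-Epinephrine. In the direct groups their sum was highest in Control, at 265 to 295 CPM. It was 243 to 253 with TNF, 200 to 203 with IL1b, 226 to 241 with C5a and 187 to 200 with epinephrine. The median log2 fold changes of the 4 fibroblast markers tested were 0.56, -0.06, -0.22 and -0.27 with these stimuli. Pericyte and smooth muscle markers (7 of 10, KCNJ8 at 3 counts or fewer) summed to 427 to 448 CPM in EV-Control, 466 to 479 with EV-TNF, 467 to 495 with EV-IL1b and 516 to 537 with EV-Epinephrine. CSPG4 alone ran from 251 to 441 CPM over all libraries, so 1 gene weighs heavily in these sums. The median log2 fold changes of the 7 genes tested were 0.13, 0.17 and -0.04 with these vesicles. The sum was 378 to 433 CPM in Control and 467 to 488 with TNF, where the median was -0.45. Endothelial markers summed to 1483 to 1551 CPM in EV-Control, 1621 to 1658 with EV-TNF, 1614 to 1685 with EV-IL1b and 1608 to 1671 with EV-Epinephrine. The part of these markers in the direct and vesicle results was not tested.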

How the data were processed

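Whole-number counts per gene were deposited by the authors in 1 table of 30 libraries, with no normalization per the file headers. Each library was built from 1 ng RNA, per the labels' protocols. The submitters' processing notes name build hg38, FastQC, STAR, DESeq2 and R 4.4.1. The counting program, its use of strand and its annotation are not given in the sources used here. Of 63147 lines, 4 had no gene ID (at most 0.00164% of a library's counts) and were left out, as were 2 genes with no counts in their line and 3 repeated IDs with identical counts.

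Counts were tested with edgeR 4.0.16 in R 4.3.3 (limma 3.58.1), by robust quasi-likelihood fits with TMM scaling, filterByExpr and two-sided p-values adjusted by Benjamini-Hochberg over all genes tested. The 15 direct libraries, the 15 vesicle libraries and, for EV-Control against Control and the differences between responses, all 30 libraries were fitted together. The code was tested on simulated data. CPM uses the TMM factors of all 30 libraries. Gene positions and lengths come from GENCODE 29, which held 58124 of the 63138 gene IDs, and promoter sequences from RefSeq. Library totals of 16643961 to 22112326 counts set the precision, and genes at a few CPM are the least precise.

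Each comparison with a control is shown library by library for at most 4 risers and 4 fallers, ranked by fold change among called genes whose groups did not overlap and whose higher mean was 5 CPM or more, and always for 13 core genes. Alternatives were other scaling (total counts, RLE), other low-count filters, DESeq2 1.42.0, a replicate block, other sets of libraries in the fit, each library left out in turn, a fold threshold, a stricter count minimum and another gene length. The genes and lists were chosen with earlier results of these data known.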

Additional observations from a re-analysis of the deposited data

Results flagged for a closer look

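For 25 pairs of a gene and a stimulus, the direct and the vesicle comparison were called in opposite directions and the difference between them, the vesicle log2 fold change minus the direct one, was itself called by edgeR's quasi-likelihood test. For TNF there were 8 (adjusted p from 1.86e-48 to 0.000116). The difference was -3.69 for LAMB3, -0.60 for LAMC1, -0.80 for FN1 and -0.90 for ITGAV, which were called higher with TNF and lower with its vesicles. The EV-TNF call of LAMC1 was lost without any 1 of the 6 libraries and that of ITGAV without EV-Control library 1 (adjusted p = 0.0851) or EV-TNF library 1 or 2. It was 1.35 for COL4A4, 1.098 for ITGA10, 2.02 for ITGA11 and 3.14 for ITGB4, which were called lower with TNF and higher with its vesicles. The TNF call of COL4A4 was lost without Control library 2 or TNF library 1 or 2, and the EV-TNF call of ITGA11 without EV-TNF library 3.

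For IL1b there were 8 (adjusted p from 6.5e-33 to 0.000483). The difference was -1.92 for LAMB3, -0.50 for FN1 and -0.28 for ITGAV, which were called higher with IL1b, the EV-IL1b call of ITGAV being lost without EV-Control library 1 (adjusted p = 0.0647). It was 0.69 for HSPG2, 0.55 for ITGA3, 1.15 for ITGA10, 2.59 for ITGA11 and 1.21 for ITGB4, which were called lower with IL1b, the EV-IL1b call of HSPG2 being lost without EV-Control library 3 or any EV-IL1b library.

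For epinephrine there were 9 (adjusted p from 1.81e-22 to 0.000969), all called lower with the agent and higher with its vesicles. The direct calls of LAMA5, LAMC1, COL4A1 and ITGB5 and the vesicle call of ITGA11 were each lost without certain single libraries (for ITGB5, Control library 1). The difference was 0.46 for LAMA5, 0.26 for LAMC1, 0.47 for COL4A1, 0.38 for COL4A2, 0.65 for AGRN, 0.77 for ITGA3, 1.30 for ITGA10, 2.00 for ITGA11 and 0.35 for ITGB5. The 3 stimuli share the Control and EV-Control libraries. Opposite calls were not counted over all genes, so the number of pairs has no background.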

How the results depend on the processing

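Of 265 calls of a gene in a comparison, 194 were kept under every other scaling, filter, tool, replicate block and choice of libraries. When a library was left out 59 were lost, and 52 were lost in another setting. These 2 counts overlap, since some calls were lost in both ways. Kept and lost calls were not counted over all genes, so they have no background. For direct epinephrine 12 of 20 were kept. With an absolute log2 fold change over 1 required as well, 7 genes were called with TNF, 3 with IL1b, 0 with C5a, 3 with epinephrine, 0 with EV-TNF, EV-IL1b and EV-Epinephrine, 3 in EV-Control against Control and 2 in IL1b against TNF, and 7, 4, 0 and 2 for the differences between responses (TNF, IL1b, C5a, epinephrine). Of all genes, 2037, 1118, 330 and 313 then passed with the direct stimuli in that order, 208, 219, 0 and 368 with their vesicles, 372 in EV-Control, 1124 in IL1b against TNF and 2260, 1188, 264 and 768 for the differences. Leaving out 1 library gave 23 to 25 genes with TNF, 21 to 23 with IL1b, 15 to 18 with C5a, 16 to 22 with epinephrine, 13 to 19 with EV-TNF, 17 to 19 with EV-IL1b, 0 to 1 with EV-C5a, 17 to 19 with EV-Epinephrine, 15 to 18 in EV-Control (22 with all libraries) and 17 to 19 in IL1b against TNF. For the differences it gave 21 to 25, 19 to 22, 10 to 16 and 18 to 24. Over all genes it gave 7655 to 7950, 6529 to 6804, 2762 to 3068 and 3029 to 4440 with TNF, IL1b, C5a and epinephrine. With their vesicles the ranges were 1523 to 2220, 1643 to 2334, 2 to 175 and 2427 to 3136. They were 2743 to 3273 in EV-Control against Control and 5852 to 5964 in IL1b against TNF. For the differences they were 6937 to 7261, 5379 to 5688, 1622 to 1875 and 3541 to 4414. With EV-C5a, 8 of all genes were called, 5 with total-count scaling, 73 without the filter, 3 at a mean of at least 50 counts, 3 in a fit of all 30 libraries or of the groups compared, and 175 without EV-Control library 3, the cause of which was not tested. Total-count scaling turned the sign of 13 fold changes that were called under at least 1 of the 2 scalings. Sign changes of genes called under neither are not counted here. The 13 were with TNF LAMA3 (-0.23), COL4A2 (-0.041), COL4A6 (-0.21) and ITGB1 (-0.22), in IL1b against TNF COL4A6 (0.014), NID2 (0.14), ITGA6 (0.039), ITGA10 (0.14) and ITGB1 (0.077), and in the TNF difference LAMA4 (0.26), COL4A2 (0.086), NID1 (0.25) and ITGB1 (0.064). Libraries with the same number did not deviate together (correlations from -0.0654 to 0.0327), and with the replicate block 25, 23, 18 and 21 genes were called with the direct stimuli, 19, 18, 0 and 19 with the vesicles, 22 in EV-Control, 19 in IL1b against TNF and 23, 20, 14 and 20 for the differences. Requiring 10 counts in all 30 libraries left 31 genes. By longest transcript FN1 (346 CPM per kb) lay above ITGB1 (340).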
